A study of Mus musculus with 7 samples.

Results

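The neurotrophin system of the mouse prefrontal cortex was described by 8 genes, the ligand genes Bdnf and Ntf3, the receptor genes Ntrk2, Ntrk3 and Ngfr, and the sorting receptor genes Sort1, Sorcs1 and Sorcs3. They were chosen by symbol, all 8 were among the 43626 gene identifiers of the deposited table, and all 8 passed the filter on low values. Prefrontal RNA was sequenced from 8-week-old male mice of the C57BL/6J strain, in 4 libraries labelled hDISC1AA/+ and 3 wild-type (WT) libraries; the labels give no treatment for either genotype. DISC1 is a scaffold protein of neurons, and the series title names its phosphorylation at a pair of serines and neuronal polarization. The labels do not describe the hDISC1AA allele further, nor do they say that each library came from a separate mouse, so p-values measure the spread between these libraries, which may in part be technical. For 1 hDISC1AA/+ library the number in the table matches none of the titles; it is written here as the unnumbered library.

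Neurotrophins are small secreted growth factors made as longer proneurotrophins that proteases trim. The mature forms bind Trk receptor tyrosine kinases, which signal through adaptor proteins to the MAP kinase, PI3 kinase and phospholipase C pathways, while p75 (the product of Ngfr) with sortilin binds the uncut forms. In cortex, excitatory neurons make BDNF in response to activity, and its receptor TrkB supports dendrites, spines and synaptic plasticity. Astrocytes carry mainly a truncated TrkB without the kinase. Reads were counted here per gene, so full-length and truncated receptors and the alternative starts of Bdnf cannot be separated.

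Bdnf is transcribed from several start sites, some of which respond to neuronal activity through binding sites for CREB. Of 7 Bdnf windows of 250 bases before a start site in the RefSeq table (build GRCm38.p6), 2 hold the letters TCACGTNA on either strand. This pattern, in which N is any base, resembles the CREB site and occurs in 1.4% of all 32851 windows in that table. Not every match need be a CREB site, and enrichment in Bdnf was not tested. The full palindromic CREB site, TGACGTCA, was in 0 of the 7 Bdnf windows and in 0 of the 13 windows that the table holds for 6 of the 8 genes, against 1.55% of all windows; the motifs share the core ACGT. The 2 windows with TCACGTNA are shown as background on Bdnf, which had the highest within-genotype spread on the log2 scale of the 8 genes. Whether these sites had a part in that spread was not tested. The 2 windows lie at chr2:109674450-109674699 and chr2:109692186-109692435 on the plus strand, overlap no annotated exon, and carry the match 78 and 38 bases before the start site. The capitals mark the match, which is a description and not evidence that CREB bound there.
Bdnf window 1: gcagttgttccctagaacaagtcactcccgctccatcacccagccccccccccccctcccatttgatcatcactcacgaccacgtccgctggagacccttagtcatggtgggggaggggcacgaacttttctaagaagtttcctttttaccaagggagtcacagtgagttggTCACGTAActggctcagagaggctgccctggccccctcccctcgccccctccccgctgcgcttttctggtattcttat
Bdnf window 2: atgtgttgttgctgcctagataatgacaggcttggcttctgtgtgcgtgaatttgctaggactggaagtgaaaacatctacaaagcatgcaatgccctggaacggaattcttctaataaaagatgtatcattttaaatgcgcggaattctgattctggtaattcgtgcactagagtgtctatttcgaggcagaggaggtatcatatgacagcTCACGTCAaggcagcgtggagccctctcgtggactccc

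Reads counted in genes came to 63845254 in WT replicate 1 and to between 33512557 and 36005116 in each of the other 6 libraries. In a principal component analysis WT replicate 1 stood apart on the first axis (38.7% of the variance) and hDISC1AA/+ replicate 1 on the second (31% of the variance). In hDISC1AA/+ replicate 1 mitochondrially encoded genes took 1.94% of the reads, against 5.14% to 6.94% in the other 6 libraries. Markers of cortical excitatory neurons were abundant in every library (summed normalized counts of 6 markers 209275 to 282380 in hDISC1AA/+ and 230916 to 269828 in WT). A list of 6 olfactory bulb markers summed to 863 to 9162 normalized counts in hDISC1AA/+ and 1623 to 5704 in WT, lowest in hDISC1AA/+ replicate 1 and highest in the unnumbered library. Fewer cells of a type and less RNA per cell cannot be told apart in bulk tissue. A normalized count is the deposited value, reads divided by 1 size factor per library.

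None of the 8 genes differed between the genotypes by the test across all genes. Limma called 0 of 17670 genes at an adjusted p under 0.05 (0%), and 431 genes (2.44%) had an unadjusted p under 0.05; edgeR called 0 of 17540 with 452 (2.58%) under 0.05 unadjusted, and DESeq2 called 0 of 28315 with 604 (2.13%). Limma with array weights also called 0, with 10.3% under 0.05 unadjusted, and so did limma without WT replicate 1 and hDISC1AA/+ replicate 1, with 3.34%. Among the 8 genes, 1 (Ntrk2) had an unadjusted p under 0.05. In all 8 the normalized counts of the groups overlapped, whereas for 5.04% of all genes tested they did not overlap. Fitted values lay below 0 for 6 of the 8 genes and above 0 for 2, against 52.2% and 47.8% of all genes tested, and the count of 6 was 4 without the unnumbered library. It was also 4 when libraries were scaled to equal totals, where 33.1% of all genes tested lay below 0.

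Bdnf, which encodes brain-derived neurotrophic factor, was the member whose level varied most on the log2 scale between libraries of the same genotype. Bdnf (ENSMUSG00000048482; GRCm38 chromosome 2, bases 109674700 to 109727007, plus strand) was present at 1070.4 normalized counts in hDISC1AA/+ replicate 1, 2511 in replicate 3, 857 in replicate 4 and 1193 in the unnumbered library, against 2982, 1434 and 1103 in WT replicates 1 to 3. A high library and lower ones were present in both genotypes, with a 3.48-fold distance between the lowest and the highest of the 7. The means were 1408 ± 748 in hDISC1AA/+ and 1840 ± 1003 in WT (SD, n = 4 and 3). The coefficient of variation was 53.2% in hDISC1AA/+ and 54.5% in WT, while counting error at the 833 reads of the shallowest Bdnf value would be 3.46%. Of 2909 tested genes whose mean level lay within 1.5-fold of that of Bdnf, 0.756% had a within-genotype SD on the log2 scale as large as its 0.70. The log2 fold change (on log2 of normalized count + 1, hDISC1AA/+ minus WT) was -0.38 with a 95% confidence interval of -1.38 to 0.61 (limma adjusted p = 0.974; exact permutation p = 0.486 over 35 divisions of the libraries, two-sided). Without WT replicate 1 the log2 fold change was 0.03, and without hDISC1AA/+ replicate 3 it was -0.70, so the sign turned on 1 library and the size on another.

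The 3 coding genes with the highest Pearson correlation with Bdnf across the 7 libraries were Kdm6b, a histone demethylase (r = 0.977), Nab2, a corepressor of EGR transcription factors (r = 0.976), and Cxxc5, a zinc finger protein (r = 0.972), among 14972 coding genes. Kdm6b had 1058, 1502, 1065 and 1113 normalized counts in hDISC1AA/+ replicates 1, 3 and 4 and the unnumbered library, against 1520, 1268 and 1102 in WT replicates 1 to 3. As with Bdnf, hDISC1AA/+ replicate 3 and WT replicate 1 were the highest of all. Without WT replicate 1 the correlations were 0.968, 0.962 and 0.981. That setting keeps hDISC1AA/+ replicate 3, the other library with high Bdnf, so it cannot show whether the correlations rest on a high library. The 3 genes were also picked for their high correlation. The points share libraries with different depth and tissue makeup, and 37 coding genes had a correlation above 0.9 with Bdnf.

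All 20 genes of a list of those that BDNF induces in neurons correlated above 0 with Bdnf over the 7 libraries, with a median r of 0.61, against 0.09 over all 14973 coding genes tested. Without WT replicate 1 the median r was 0.38 and 18 of 20 lay above 0. Nrn1, which encodes the neurite growth protein neuritin (r = 0.955), and Nptx2, which encodes a secreted pentraxin of excitatory synapses (r = 0.939), were nearest to Bdnf in the list. Nptx2 had 2399, 7894, 1863 and 2710.4 normalized counts in hDISC1AA/+ replicates 1, 3 and 4 and the unnumbered library, against 6006, 2333 and 2271 in WT replicates 1 to 3. The 2 libraries with high Nptx2 were those with high Bdnf. Egr3, an EGR transcription factor (r = 0.854), had 6772 in hDISC1AA/+ replicate 3 and 5721 in WT replicate 1; its remaining 5 libraries lay at 3216 to 4464. Fos, an early activity gene (r = 0.333), went with a different library, at 3661 in hDISC1AA/+ replicate 4, where Bdnf was lowest, and 3269 in WT replicate 1. In 7 of the 20 genes the same 2 libraries as for Bdnf held the highest values. How often this held among all coding genes was not counted, nor how often their r lay above 0. The genes of the list were described from a correlation with no test, and what set the level in each library was not tested.

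**Figure D1:**
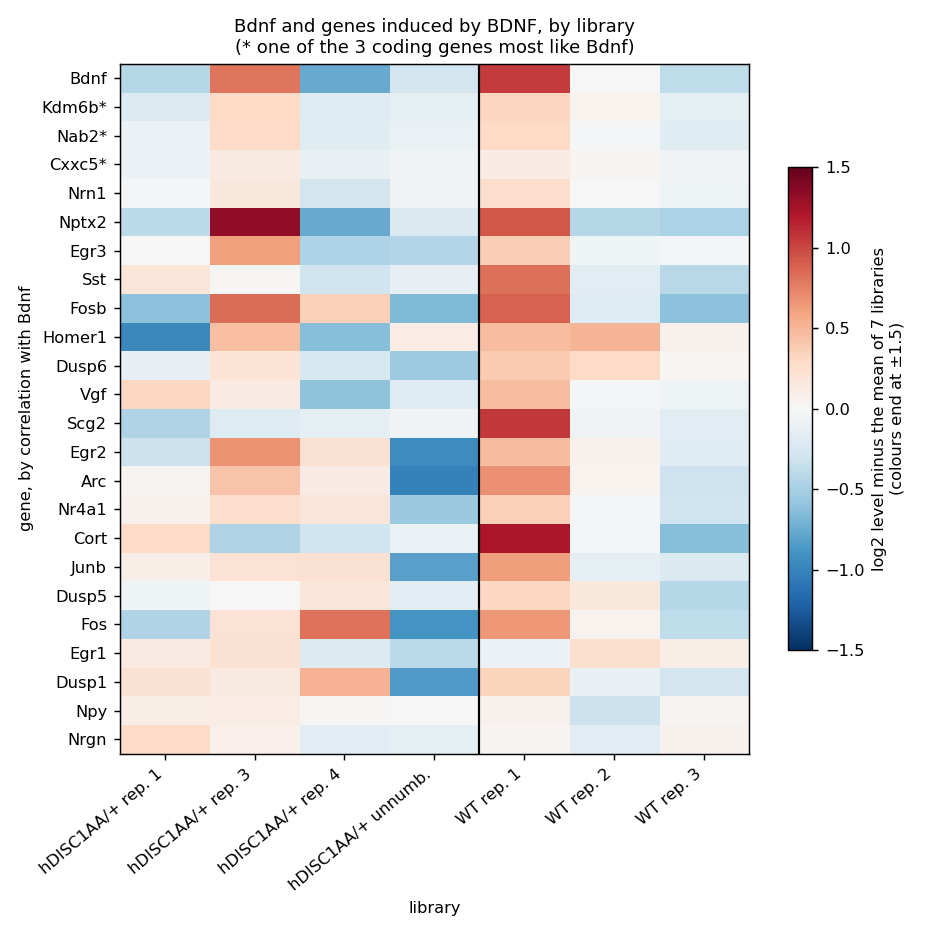
Each row is a gene and each column a library, hDISC1AA/+ left of the line and WT right of it; colour gives the log2 level (normalized count + 1) minus the mean of the 7 libraries, and rows run by correlation with Bdnf. Bdnf, Kdm6b, Nab2, Nrn1 and Nptx2 are high in hDISC1AA/+ replicate 3 and WT replicate 1, while Fos is highest in hDISC1AA/+ replicate 4.

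Ntf3, which encodes neurotrophin-3, was scarce. Ntf3 (ENSMUSG00000049107, chromosome 6, 126101412 to 126166910, minus strand) had 63.5, 52.0, 49.4 and 27.0 normalized counts in hDISC1AA/+ replicates 1, 3 and 4 and the unnumbered library, against 66.8, 44.7 and 62.1 in WT replicates 1 to 3. The unnumbered library was the lowest and the other 6 lay in 1 overlapping range. For Ntf3 the log2 fold change was -0.31 with an interval of -1.04 to 0.42 (limma adjusted p = 0.974; exact permutation p = 0.514), and it was -0.06 without the unnumbered library. That library also had the highest sum of the 6 olfactory bulb markers, 9162, against 863 to 6572 in the other 6, and whether the 2 values are related was not tested. Counting error at the 26 reads of the lowest library would be 19.6%, beside coefficients of variation of 31.8% in hDISC1AA/+ and 20.1% in WT.

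Ntrk2, which encodes TrkB, the receptor for BDNF, was abundant. Ntrk2 (ENSMUSG00000055254, chromosome 13, 58806569 to 59133970, plus strand) had 25633, 29195, 26860.4 and 23648 normalized counts in hDISC1AA/+ replicates 1, 3 and 4 and the unnumbered library, against 39402, 27608 and 31416 in WT replicates 1 to 3. WT replicate 1 stood above the other 6, and WT replicate 2 lay inside the hDISC1AA/+ range. The means were 26334 ± 2321 in hDISC1AA/+ and 32808 ± 6019 in WT (SD, n = 4 and 3). The log2 fold change was -0.31 with an interval of -0.60 to -0.01 (limma p = 0.0447 unadjusted, adjusted p = 0.974; exact permutation p = 0.0857, the smallest possible being 0.0286). Without WT replicate 1 it was -0.17, with an unadjusted p of 0.18 by limma. Over the 17 alternatives its lowest adjusted p by any tool was 0.438 (limma with array weights), and its log2 fold change stayed between -0.42 and -0.15.

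Ntrk2 and the sum of a list of 10 astrocyte markers were both highest in WT replicate 1. The sum of these markers was 158834 to 194711 normalized counts in hDISC1AA/+ and 178512 to 269502 in WT. It was lowest in hDISC1AA/+ replicate 1, with no marker at 0 in any library. All 10 had a fitted value below 0, and in 9 of 10 the highest library was WT replicate 1. The 10 oligodendrocyte markers summed to 40571 to 47388 in hDISC1AA/+ and 42784 to 141187 in WT, again highest in WT replicate 1. Without that library their sums reached at most 52552.5. WT replicate 1 also had the highest sum of the microglia (16536), oligodendrocyte precursor (11980), pan-neuronal (308701) and deep-layer (12091) lists. It had the lowest sum of the endothelial and mural (5154), meningeal fibroblast, upper-layer (33046) and blood lists. The part of astrocyte or oligodendrocyte RNA in the level of Ntrk2 was not tested. Among the coding genes most like Ntrk2 were Cadm1, an adhesion gene (r = 0.985), and Gfra1, which encodes a GDNF receptor (r = 0.984).

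Ntrk3, which encodes TrkC, the receptor for neurotrophin-3, was even across the libraries. Ntrk3 (ENSMUSG00000059146, chromosome 7, 78175959 to 78738012, minus strand) had 2582, 2692, 2278 and 2525 normalized counts in hDISC1AA/+ replicates 1, 3 and 4 and the unnumbered library, against 2227, 2532 and 2574 in WT replicates 1 to 3. The lowest values, in hDISC1AA/+ replicate 4 and WT replicate 1, came from both genotypes. For Ntrk3 the log2 fold change was 0.04 with an interval of -0.19 to 0.27 (limma adjusted p = 0.995; exact permutation p = 0.514), and -0.02 without WT replicate 1. Its nearest genes were Sned1, a matrix protein gene (r = 0.992), Prdm6, a transcription regulator of smooth muscle (r = 0.987), and Comp, a cartilage matrix gene (r = 0.986). Prdm6 had 35.0 normalized counts in hDISC1AA/+ replicate 4 and 25.7 in WT replicate 1; its remaining 5 libraries lay at 60.2 to 89.9. The sum of 8 meningeal fibroblast markers was likewise lowest in those 2 libraries, at 6376 in hDISC1AA/+ replicate 4 and 5135 in WT replicate 1, against 6633 to 10303 in the other 5, with no marker at 0; its part in the level of Ntrk3 was not tested.

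Ngfr, which encodes p75, a receptor for all neurotrophins that is abundant on cholinergic neurons of the basal forebrain, was near the lower end of detection. Ngfr (ENSMUSG00000000120, chromosome 11, 95568818 to 95587735, minus strand) had 42.3, 42.2, 53.5 and 42.6 normalized counts in hDISC1AA/+ replicates 1, 3 and 4 and the unnumbered library, against 44.9, 37.1 and 44.7 in WT replicates 1 to 3. Of the hDISC1AA/+ libraries 3 were nearly alike and replicate 4 was above them. For Ngfr the log2 fold change was 0.09 with an interval of -0.42 to 0.60 (limma adjusted p = 0.995; exact permutation p = 0.571), and it was 0.01 without hDISC1AA/+ replicate 4 and 0.004 without WT replicate 2. The list of 5 cholinergic markers, which holds Ngfr itself, summed to 94.1 to 125.5 in hDISC1AA/+ and 106 to 123 in WT, and its marker Lhx8 was at 0 in at least 1 library.

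Sort1, which encodes sortilin, a sorting receptor for BDNF and a coreceptor of p75 for proneurotrophins, varied little. Sort1 (ENSMUSG00000068747, chromosome 3, 108284082 to 108361511, plus strand) had 26441 normalized counts in hDISC1AA/+ replicate 1, 26762 in replicate 3, 27075 in replicate 4 and 23016 in the unnumbered library, against 25753, 26603 and 27144 in WT replicates 1 to 3. The unnumbered library was the only value below the WT range. The log2 fold change was -0.04 with an interval of -0.24 to 0.16 (limma adjusted p = 0.993, exact permutation p = 0.8). Of the 8 genes, Sort1 had the shortest such interval. Its sign turned with scaling to equal totals (0.05), where the median of all genes was 0.08, and without the unnumbered library (0.01).

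Sorcs1 and Sorcs3 encode neuronal receptors of the same VPS10 family, which sort synaptic receptors and adhesion proteins. Sorcs1 (ENSMUSG00000043531, chromosome 19, 50143299 to 50678646, minus strand) had 2242, 2180.4, 2186 and 1898 normalized counts in hDISC1AA/+ replicates 1, 3 and 4 and the unnumbered library, against 2117, 2432.4 and 1937 in WT replicates 1 to 3. The groups covered nearly the same range, and the log2 fold change was -0.02 with an interval of -0.27 to 0.23 (limma adjusted p = 0.998, exact permutation p = 0.971). The sign turned under scaling to equal totals (0.07), where the median of all genes was 0.08. It also turned with array weights (0.07) and GC and length correction (0.03), and without WT replicate 2 (0.07) or the unnumbered library (0.03). Sorcs3 (ENSMUSG00000063434, chromosome 19, 48206025 to 48805505, plus strand) had 2045, 2783, 2332 and 2025 normalized counts in hDISC1AA/+ replicates 1, 3 and 4 and the unnumbered library, against 2796, 2269.8 and 2475 in WT replicates 1 to 3. Its highest libraries, hDISC1AA/+ replicate 3 and WT replicate 1, were those with the highest Bdnf. The log2 fold change of Sorcs3 was -0.14 with an interval of -0.44 to 0.17 (limma adjusted p = 0.974; exact permutation p = 0.371). It was -0.06 without WT replicate 1, -0.23 without hDISC1AA/+ replicate 3 and -0.006 without WT replicate 1 and hDISC1AA/+ replicate 1.

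**Figure D2:**
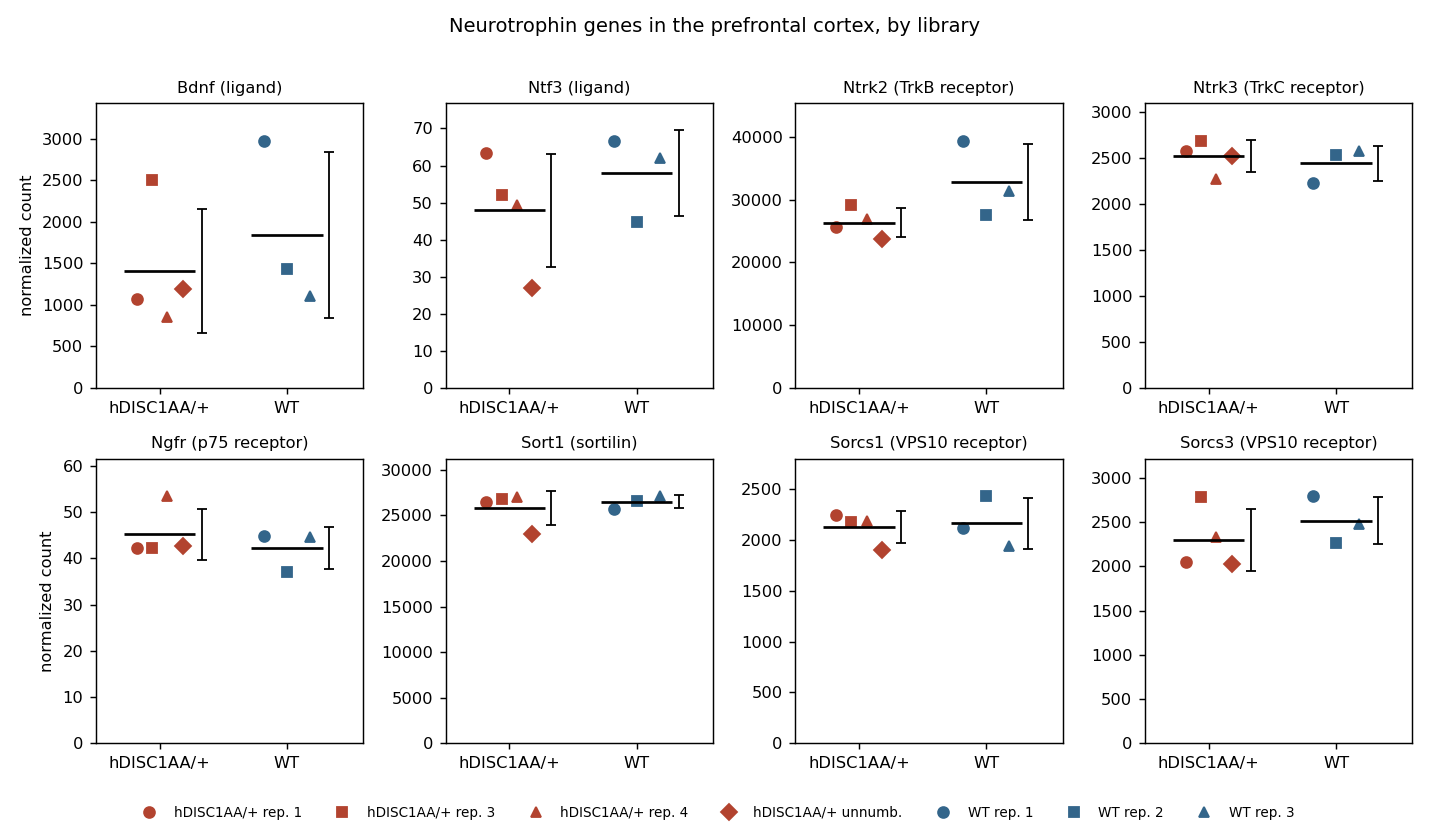
Each panel plots the normalized count of a gene in every library (points; shape gives the library), with the mean (line) and SD (bar) of 4 hDISC1AA/+ libraries left of 3 WT libraries; all axes start at 0. The groups overlap in all 8 panels, and Bdnf spans 857 to 2982.

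**Figure D3:**
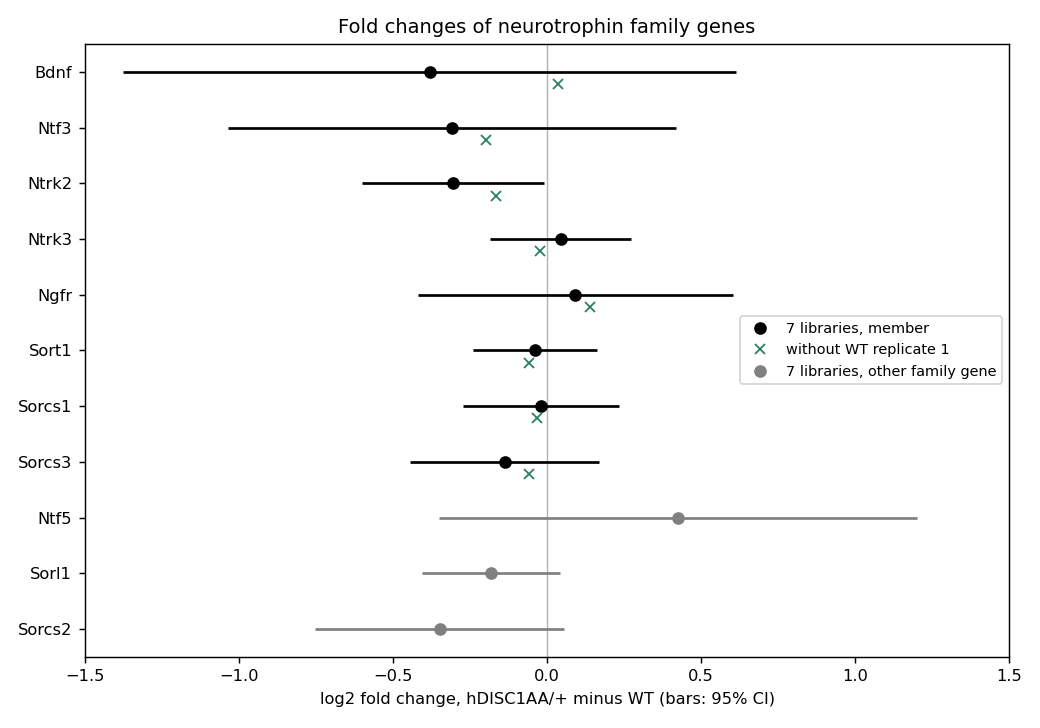
Points give the log2 fold change, hDISC1AA/+ minus WT, of the 8 genes (black) and 3 other family genes (grey) with 95% confidence intervals from limma; crosses give the value of each of the 8 genes without WT replicate 1. The cross of Bdnf lies at 0.03 and that of Ntrk2 at -0.17.

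The members moved together in part. Over the 7 libraries Pearson's r was 0.833 between Ntrk2 and Sorcs3, 0.774 between Ntf3 and Sort1, 0.762 between Bdnf and Sorcs3 and 0.691 between Bdnf and Ntrk2, and it was -0.596 between Ntrk3 and Ngfr. These are descriptions over 7 points that share the libraries that stand apart.

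Levels were compared between genes as RPKM, reads per kilobase of exon scaled to the reads that the library had in genes. The order of the mean over 7 libraries was Sort1 (92.0; 83.0 to 98.6), Ntrk2 (range 34.1 to 49.8), Sorcs3 (8.90; 7.91 to 10.3), Sorcs1 (6.77; 6.07 to 7.64), Bdnf (6.73; 3.72 to 11.7), Ntrk3 (2.20; 1.80 to 2.41), Ntf3 (0.81; 0.44 to 1.05) and Ngfr (0.34; 0.29 to 0.42). Bdnf overlapped both Sorcs3 and Sorcs1, and no other neighbours in the order overlapped. With the longest transcript as the length, Bdnf (mean 9.80) stood above Sorcs1 (mean 7.89). Sort1 averaged 93.3 ± 6.13 in hDISC1AA/+ and 90.4 ± 6.403 in WT, and Bdnf averaged 6.14 ± 3.08 in hDISC1AA/+ and 7.504 ± 3.71 in WT (SD, n = 4 and 3). The exon length of Ntrk2 (19292 bases over 10 transcripts) and Ntrk3 (30170 bases over 20 transcripts) is far above that of their longest transcript, and with the longest transcript as the length Ntrk2 had 75.3 to 110.0 and overlapped Sort1 at 91.9 to 109.

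**Figure D4:**
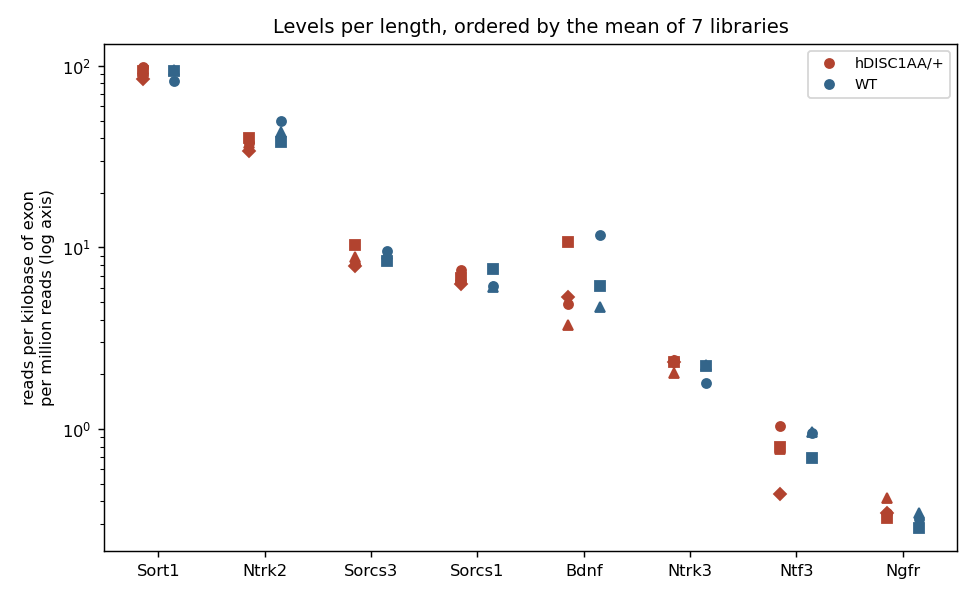
Points give the RPKM (reads per kilobase of exon, scaled to library depth) of each library on a log axis, hDISC1AA/+ left of WT for each gene, ordered by the mean of 7 libraries. Sort1 (83.0 to 98.6) and Ntrk2 (34.1 to 49.8) lie above the other 6 genes, and Bdnf has the widest range on the log axis, 3.72 to 11.7.

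Ratios between members within a library do not depend on the scaling of the libraries. The 6 ratios were compared with exact permutation tests, Benjamini-Hochberg adjusted over 6. The smallest p that 4 against 3 libraries allow is 0.0286, so after adjustment no ratio could have passed 0.05 alone, and the adjusted values say nothing on whether a single ratio differs. The log2 ratio of Ngfr over Ntrk2 averaged -9.19 ± 0.20 in hDISC1AA/+ and -9.59 ± 0.17 in WT (SD, n = 4 and 3), a difference of 0.40 (exact permutation p = 0.0571, adjusted p = 0.343). It was the ratio whose groups did not overlap, with -9.43 to -8.97 in hDISC1AA/+ and -9.78 to -9.46 in WT. The nearest libraries were hDISC1AA/+ replicate 3 (-9.433, 39 Ngfr reads) and WT replicate 3 (-9.458, 41 Ngfr reads). Counting error at the 34 reads of the lowest Ngfr value would be 17.2%, which is larger than the gap between these libraries. The log2 ratio of Ntrk3 over Ntrk2 averaged -3.39 ± 0.15 in hDISC1AA/+ and -3.73 ± 0.37 in WT, a difference of 0.35 (exact permutation p = 0.114, adjusted p = 0.343). Without WT replicate 1 this difference was 0.14. Both share Ntrk2 and so are not independent. The difference in the log2 ratio of Ntf3 over Bdnf was 0.07 and that of Bdnf over Ntrk2 was -0.08, each with an exact permutation p above 0.8 (0.857 and 0.886).

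Related genes of the family, of which 3 are given here, did not pass the threshold either. Ntf5, which encodes neurotrophin-4, had 16.9, 14.1, 15.4 and 14.5 normalized counts in hDISC1AA/+ replicates 1, 3 and 4 and the unnumbered library, against 11.6, 15.3 and 7.63 in WT replicates 1 to 3. The groups overlapped, and the log2 fold change was 0.42 with an interval of -0.35 to 1.199 (limma adjusted p = 0.974). Sorl1, a sorting receptor of the amyloid precursor protein, had 16205 ± 1227 normalized counts in hDISC1AA/+ and 18398 ± 1559 in WT (log2 fold change -0.18; limma adjusted p = 0.974). Sorcs2, a partner of p75 for the BDNF precursor, had 1875 ± 169 in hDISC1AA/+ and 2451 ± 747 in WT (log2 fold change -0.35; limma adjusted p = 0.974), its WT replicate 1 at 3312 and the other 6 libraries at 1742 to 2099.

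Wider pathway lists held no gene past the threshold. Over 10 lists with 141 genes, 138 were tested, 0 passed in either direction (limma; edgeR and DESeq2 also called 0 genes), and 7 (Ntrk2, Pcsk1, Shc3, Crk, Pdpk1 and Dusp6 among them) had an unadjusted p under 0.05 by limma, against 2.44% of all genes. The groups did not overlap for 8 of the 138, against 5.04% of all genes. Of the 138, 91 had a fitted value below 0 (65.9%), against 52.2% of all genes tested, and their median log2 fold change was -0.08, against -0.01 over all genes. With scaling to equal totals 68 of 138 lay below 0 against 33.1% of all genes, with medians of 0.01 (0.005 unrounded) and 0.08. Without the unnumbered library 76 of 138 lay below 0 and without WT replicate 1 it was 83 of 138.

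Of the proteases and secretion genes, 9 of 16 tested lay below 0 (median -0.07). Pcsk1, which encodes prohormone convertase 1, had 1732 ± 308 normalized counts in hDISC1AA/+ and 2312 ± 289.9 in WT (log2 fold change -0.43, interval -0.77 to -0.08; limma adjusted p = 0.974). Its groups overlapped, with 2161 in hDISC1AA/+ replicate 3 and 2014 in WT replicate 3. Pcsk5, a convertase of the same family, had 523 ± 86.3 in hDISC1AA/+ and 785 ± 316 in WT, with 1146 in WT replicate 1 and 555.5 and 655 in WT replicates 2 and 3. Cadps2, a factor for release of dense-core vesicles that bears on BDNF secretion, had a log2 fold change of -0.27. It was highest in WT replicate 1 (3319). In Pcsk5 and Cadps2 the groups overlapped and the intervals held 0 (-1.085 to 0.028 and -0.575 to 0.04). Of the p75 and Trk partners 11 of 16 lay below 0 (median -0.05), with Rtn4, the gene of Nogo, at -0.22, Dok5 at -0.31 and Kidins220, a scaffold of Trk receptors, at -0.13. In these named partners the groups overlapped and the intervals held 0. Dok5 had 1293 normalized counts in WT replicate 1 and at most 928 in any other library.

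Of the Trk adaptors 15 of 24 lay below 0 (median -0.08). Shc3, a neuronal Shc adaptor, had 1308 ± 226 normalized counts in hDISC1AA/+ and 1639 ± 77.1 in WT (log2 fold change -0.34; limma adjusted p = 0.974), with 1067 to 1547 in hDISC1AA/+ and 1551 to 1692 in WT. Crk, an SH2 adaptor, had 5190.3 to 6195 in hDISC1AA/+ and 6482 to 6757 in WT (log2 fold change -0.21). In both genes the groups did not overlap, which held for 2 of the 24 adaptors and 5.04% of all genes. Irs2, an insulin receptor substrate, had a log2 fold change of -0.40.

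Of the MAP kinase branch 8 of 20 lay below 0 (median 0.01), but 10 to 12 of 20 with any 1 library left out (medians -0.018 to 0.009) and 12 of 20 with GC and length correction (median -0.04). Of the PI3 kinase branch 13 of 15 lay below 0 (median -0.08), against 52.2% of all genes tested (median -0.01). With scaling to equal totals it was 7 of 15 (median 0.005), against 33.1% of all genes (median 0.08). The groups did not overlap for 3 of the 20 and 3 of the 15, against 5.04% of all genes. Pdpk1, which encodes the kinase PDK1 of this branch, had 5769 to 6498 normalized counts in hDISC1AA/+ and 6897 to 7289 in WT (log2 fold change -0.20; limma adjusted p = 0.974). Pik3r1, a regulatory subunit of PI3 kinase, had a log2 fold change of -0.19. In the MAP kinase branch Nras (-0.22) and Rps6ka3 (-0.38) had the smallest p, and in both of them hDISC1AA/+ replicate 1 was the lowest library. A trend on GC content and length held a share of 0.359 of the spread of that library over genes, against at most 0.12 in the other 6; the part of this in those values was not tested.

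Of 16 transcriptional regulators of Bdnf 10 lay below 0 (median -0.11), with the kinase gene Camk4 at -0.31 and Creb1, which encodes CREB, at -0.37. Their intervals were -0.72 to 0.11 and -0.90 to 0.17, and the groups overlapped in both. Both were lowest in hDISC1AA/+ replicate 1. Camk4 had 8002 normalized counts there, against 12184 to 14225 in the other hDISC1AA/+ libraries. Creb1 had 1419.5 there, against 2758 to 2833. The median of the 16 regulators was -0.03 without the unnumbered library. It was also -0.03 with scaling to equal totals, where the median of all genes was 0.08. Of the 20 genes induced by BDNF 17 lay below 0 (median -0.16). Without WT replicate 1 the count was 8 of 20 (median 0.08), without the unnumbered library it was 9 of 20 (median 0.04), and with array weights it was 7 of 20 (median 0.13), so the direction of this list turned with 1 library left out. Dusp6, a phosphatase of ERK, had 2674 to 4489 normalized counts in hDISC1AA/+ and 3979 to 5093 in WT (log2 fold change -0.41; limma adjusted p = 0.974). Homer1, a postsynaptic scaffold with an activity-induced short form, had 6182 to 16517 in hDISC1AA/+ and 12656 to 17280.3 in WT (log2 fold change -0.61), and Scg2, a granin, reached 16994 in WT replicate 1 with the other 6 libraries at 5962 to 7878 (log2 fold change -0.49).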

How the data were processed

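Per the labels' protocols, Trizol was used for RNA from frozen prefrontal tissue, and the library kit was NEBNext Ultra RNA. Tools listed in the submitters' processing notes are DESeq2 1.26.0, HTSeq 0.6.1, HISAT2 2.1.0 and Trimmomatic 0.39, with mm10 as the build. Not given in the sources used here: annotation version, strand setting, handling of multimapped reads. The deposited table holds a normalized signal, gene counts that the authors divided by 1 size factor per library: in all 7 columns 100% of the values above 0 were whole multiples of 1 step within 0.01 reads, which gave back the whole reads. Identifier and values of 3 genes stood on separate lines and were left out (0.012% to 0.0169% of the values). Symbols and coordinates come from GENCODE M21 (GRCm38; 42545 of 43626 identifiers matched). With no strand information, reads of Bdnf, Ntrk2, Ntrk3, Sort1, Sorcs1 and Sorcs3 cannot be told from those of genes annotated on the opposite strand inside them, of which Gm9885 in Ntrk3 had 160 to 211 normalized counts.

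The 17670 genes that reached 10 normalized counts in 3 or more libraries entered limma 3.58.1 (trend, robust; two-sided), as log2(normalized count + 1), and Benjamini-Hochberg adjusted p under 0.05 was called; the scale understates changes of low genes. Alternatives were edgeR 4.0.16 and DESeq2 1.42.0 on the recovered reads, other scalings, pseudocounts of 0.5 and 5, no filter, array weights, correction for GC content and length, and left-out libraries. The limma calculation was tested on simulated counts. Exact permutation tests used all 35 divisions into 4 and 3. Named genes were the 8 members, the 3 genes with the smallest p in each list, the 3 coding genes most like each member, and genes of the BDNF-induced list (Nrn1, Nptx2, Egr3, Fos) chosen after their values were seen; some genes that this rule names are not reported here. The members and lists were chosen with earlier results of these data known. Counting errors cover counting only. Promoter sequences come from RefSeq, whose table held 6 of the 8 genes.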

Additional observations from a re-analysis of the deposited data

Results flagged for a closer look

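Among the 4 hDISC1AA/+ libraries, 35 values were examined for a library far from the other 3, and 5 passed Dixon's 95% limit; chance passes about 1 group in 20. Ngfr was highest in replicate 4, at 53.5 normalized counts, against 42.2 to 42.6 in the other 3. These Ngfr values rest on 52 reads against 39 to 41, and counting error at the 34 reads of the lowest Ngfr library would be 17.2%. Sort1 was lowest in the unnumbered library, at 23016, against 26441 to 27075. In hDISC1AA/+ replicate 1, Nras was lowest at 1547.5, against 1961 to 1994, Rps6ka3 at 1994, against 3439 to 3649, and Creb1 at 1419.5, against 2758 to 2833. A trend on GC content and length held a share of 0.359 of the spread of that library over genes; its part in these values was not tested.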

How the results depend on the processing

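No alternative made any of the 8 genes pass, and the count of genes past the threshold was 0 in all 17, with 218 to 1823 genes at an unadjusted p under 0.05. Ntf3 (-0.48 to -0.06), Ntrk2 (-0.42 to -0.15), Ngfr (0.004 to 0.18) and Sorcs3 (-0.23 to -0.006) kept their sign in all 17, with Ngfr and Sorcs3 close to 0 in some. Bdnf turned to 0.25 with array weights and 0.12 without WT replicate 1 and hDISC1AA/+ replicate 1 together, and lay between -0.70 and 0.034 with 1 library left out. Ntrk3 turned to -0.024 with array weights and -0.035 without both libraries, and lay between -0.022 and 0.091 with 1 left out. With scaling to equal totals the median of all genes was 0.076. Sort1 turned to 0.046 with that scaling (-0.064 to 0.014 with 1 left out). Sorcs1 turned to 0.065 with equal totals, 0.068 with array weights and 0.029 with GC and length correction (-0.097 to 0.068 with 1 left out). Without both libraries the ratio differences turned to -0.48 for Ntf3 over Bdnf, 0.28 for Bdnf over Ntrk2 and 0.053 for Sorcs3 over Sorcs1; with 1 left out the first lay between -0.24 and 0.43 and the second between -0.36 and 0.20. The median of the pathway lists together was 0.005 with equal totals (0.076 over all genes) and -0.113 to -0.029 with 1 left out. The cause was not tested. No paired analysis was possible because the labels give no number shared between the genotypes. At 26 to 104 reads for Ntf3 and 34 to 70 for Ngfr, counting error limits what can be detected.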
